A study of Mus musculus with 8 samples.

Results

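Interferon-stimulated genes are the genes that cells switch on when they sense interferon. The 39 described here are Stat2, Irf7 and Irf9 (signalling and transcription), Ddx58, Ifih1, Dhx58 and Zbp1 (sensors of foreign nucleic acid), Isg15, Usp18, Ifit1, Ifit2 and Ifit3, 6 genes of the OAS family, 8 interferon-induced GTPases, 3 Schlafen genes, Bst2, Ifitm3, Rtp4 and Tap1, and Rsad2, Ifi44, Ifi27l2a, Parp14, Xaf1 and Ifi35. They were taken by gene name, and all 39 had probes under their own names among the 28146 gene names of the array (56 of 41174 probes). The list was drawn up with food-restriction results of these arrays known, so the differences between diets are given for the members as a description and without a test.

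Liver RNA came from pregnant C57BL/6J mice and their male fetuses. Food-restricted (FR) mothers received 50% of the chow that control mothers ate, from gestation day 10 to 17, and control mothers ate freely. Caesarean section followed on gestation day 18, when 6 maternal livers per diet and those of 2 male fetuses of each mother were collected and pooled. Each FR pool was hybridised against a control pool of the same kind on an Agilent 2-colour mouse array, and once more with the dyes exchanged, which gave 8 arrays. There was 1 pair of maternal pools (6 animals per pool) and 1 pair of fetal pools of 6, both on slide 1. The 2 pairs of fetal pools of 3, called group 1 and group 2, were on slide 2. Slide was assigned by whether an array came with mean signals (slide 1) or without them (slide 2). Dye-exchanged arrays of the same pools were averaged, so fetal values are means ± SD over 3 pool pairs, and the maternal pair has no replicate. The labels do not say which mothers gave to which fetal pool, so pools may share mothers, and the spread between them may be partly technical.

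Interferons are secreted when a cell detects a virus or other foreign nucleic acid. Type I interferon binds the receptor made of Ifnar1 and Ifnar2, the kinases Jak1 and Tyk2 phosphorylate Stat2, and a complex that holds Stat2 and Irf9 binds a promoter element called ISRE, while interferon gamma acts through GAS elements. The proteins made in response degrade or sequester viral RNA, modify proteins, block entry or assembly of particles and present antigen. Fetal liver holds hepatocytes beside blood-forming cells, and both kinds of cell as well as macrophages can express these genes.

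To show the promoter elements that the members share, promoter sequences were taken from RefSeq (GRCm38.p6), which covered 27 of the 39 members from 250 bases before to 50 bases after the start. The ISRE letters searched were GAAA and GAAA with any 2 bases between them, on either strand (TTTC and TTTC on the other), and the GAS letters were TTCNNNGAA, which read the same on both strands; the 2 kinds of match were counted separately and may overlap. The ISRE letters were found in 14 of the 27 member promoters (51.9%), against 3.99% of the 27025 genes of the table. GAS letters were found in 6 (22.2%), against 9.55% of genes. A match is a description of the letters and no evidence of binding. The stretches below lie before the start, on the gene's own strand, with ISRE matches in capitals, for the 4 members with a match and the 2 without one whose fetal differences were largest.
Isg15 (chr4:156200830-156200929, minus strand): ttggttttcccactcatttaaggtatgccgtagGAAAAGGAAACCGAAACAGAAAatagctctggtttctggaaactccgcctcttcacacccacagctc
Rsad2 (chr12:26456518-26456617, minus strand): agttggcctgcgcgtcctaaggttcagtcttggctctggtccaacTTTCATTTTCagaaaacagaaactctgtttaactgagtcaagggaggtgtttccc
Igtp (chr11:58199456-58199555, plus strand): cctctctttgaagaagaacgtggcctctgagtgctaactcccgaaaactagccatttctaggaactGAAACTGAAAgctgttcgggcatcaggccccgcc
Ifit1 (chr19:34640759-34640858, plus strand): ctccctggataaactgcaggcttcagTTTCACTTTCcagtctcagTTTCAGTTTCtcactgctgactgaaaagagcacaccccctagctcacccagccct
Ifi44 (chr3:151749911-151750010, minus strand): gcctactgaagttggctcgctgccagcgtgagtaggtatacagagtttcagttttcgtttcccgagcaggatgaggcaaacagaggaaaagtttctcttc
Slfn4 (chr11:83175086-83175185, plus strand): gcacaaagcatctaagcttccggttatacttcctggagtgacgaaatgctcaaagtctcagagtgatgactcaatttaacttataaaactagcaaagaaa
Isg15 held 3 overlapping ISRE matches, with 56 bases between the nearest and the start, Ifit1 held 2 and Rsad2 and Igtp 1 each. The fetal differences given below had a median of -0.98 over the 14 members with the letters (range -2.38 to -0.50) and of -0.89 over the 13 without (range -1.88 to -0.24), so both sets spanned large and small differences.

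In fetal liver every member was lower under FR. All 39 passed the filter on dim probes, 38 of them well above background for both diets on all 6 fetal arrays. Every one of the 39 had a log2 ratio of FR over control below 0 in all 3 pool pairs, where 30.2% of the 21120 genes measured did so. Members lower by 1.5-fold or more in all 3 pairs numbered 19, and 1.26% of all genes were that low. None was higher by 1.5-fold in all 3, where 0.952% of all genes were, and 18 members had a mean at least 2-fold lower, against 0.668% of all genes. The median over the members was -0.70 in the pools of 6, -1.55 in group 1 and -0.62 in group 2, and the median of all genes stayed within 0.02 of 0 in each pair. Group 1 gave the lowest value for 39 of 39 members, where it gave the lowest for 34.5% of all genes. These are whole-liver pools, in which fewer cells of a type and less RNA per cell cannot be told apart.

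**Figure D1:**
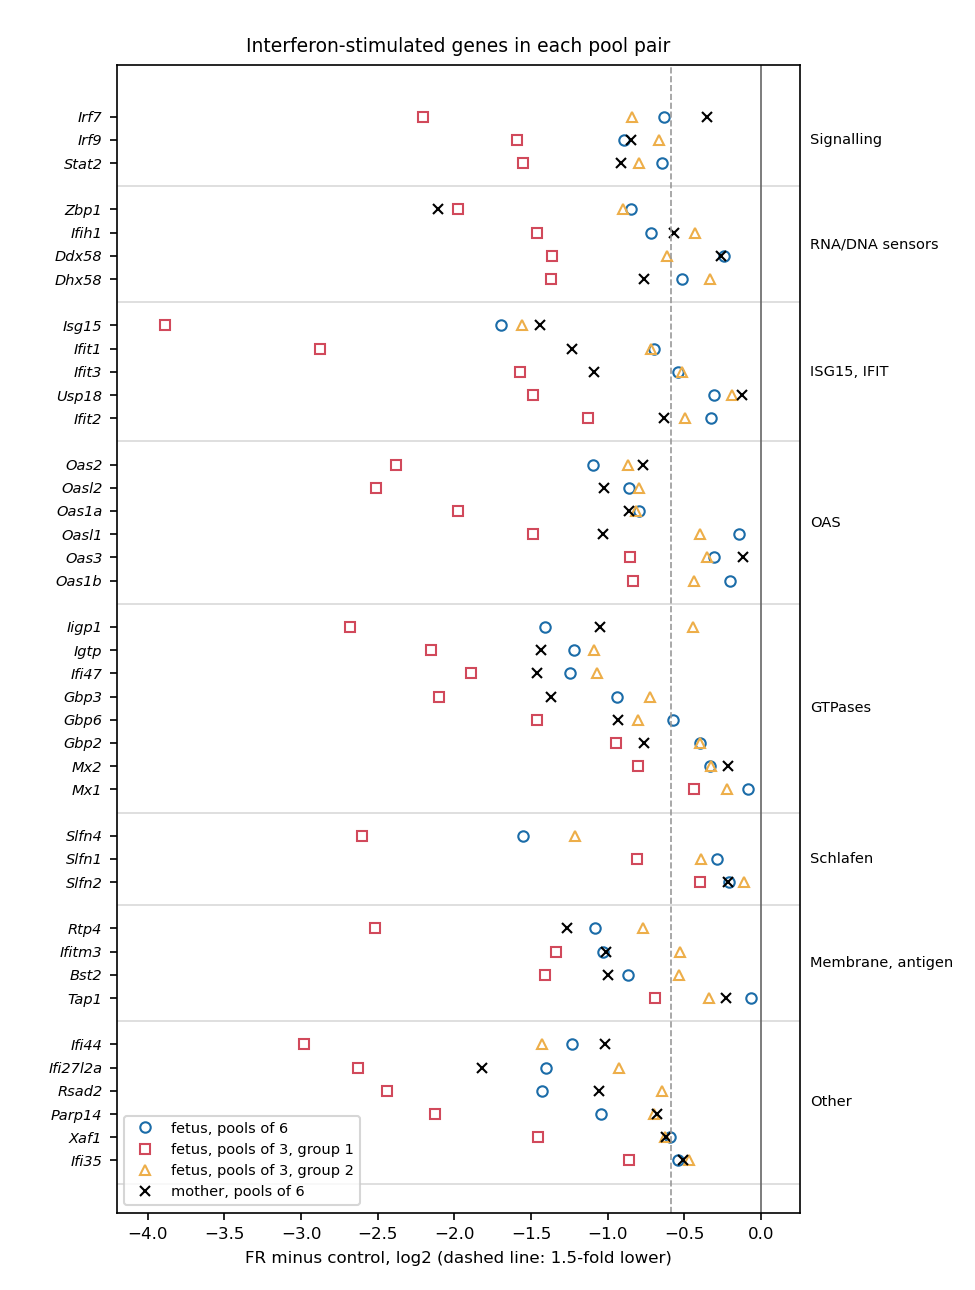
FR minus control (log2) of the 39 interferon-stimulated genes, one row per gene, grouped by role, with a symbol for each of the 3 fetal pool pairs (circle, pools of 6; square, group 1; triangle, group 2) and a cross for the maternal pair. All symbols lie left of 0, the squares of group 1 are the leftmost fetal symbol in all 39 rows, and no cross is drawn for the 4 members that were not measured in mothers.

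The 3 transcription factors of the pathway were lower in all pool pairs. Irf7, which drives the amplification of type I interferon, was at -1.23 ± 0.85 (n = 3 pool pairs), Irf9, the DNA-binding part of the interferon complex, at -1.05 ± 0.48, and Stat2, its signalling partner, at -0.999 ± 0.48. All 3 were lower by 1.5-fold or more in each pair. Their maternal values were -0.35 for Irf7, -0.85 for Irf9 and -0.91 for Stat2, so Irf7 was the member of this group with the smaller maternal difference. The cytosolic sensors were next. Zbp1, which senses nucleic acid and can start necroptosis, was at -0.85 in the pools of 6, -1.98 in group 1 and -0.90 in group 2 (mean -1.24 ± 0.64), and Ifih1 (MDA5), Ddx58 (RIG-I) and Dhx58 (LGP2), the RNA helicases, were at -0.87 ± 0.53, -0.74 ± 0.57 and -0.74 ± 0.55. Zbp1 had the largest maternal difference of all members, -2.53 with FR in Cy5 and -1.69 with FR in Cy3 (mean -2.11, 4.31-fold lower). Its maternal value was the one that lay below all 3 fetal pairs among the members measured in both.

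Isg15, a ubiquitin-like protein that is attached to other proteins during the response, had the largest fetal difference of all (probe at chr4:155573922-155573981, mm9). Its values were -1.70 in the pools of 6, -3.88 in group 1 and -1.56 in group 2, a mean of -2.38 ± 1.31 or 5.20-fold lower, and the maternal arrays gave -1.80 and -1.09. Ifit1, which binds viral RNA caps, was at -0.70, -2.87 and -0.72 in the same order (mean -1.43 ± 1.25), so group 1 stood well apart from the other pairs, which nearly coincided. Ifit3 (-0.88 ± 0.60) and Ifit2 (-0.65 ± 0.42), partners of Ifit1 in the same complex, were lower by less. Usp18, the protease that removes Isg15 and dampens receptor signalling, was at -0.31, -1.49 and -0.19 in fetuses and at -0.12 in mothers, among the smallest maternal differences. The 3 Ifit genes lie within 73612 bases on chromosome 19 (mm9).

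The OAS proteins make the messenger that activates RNase L, or, as OASL, bind RNA and its sensors. Oas2 was at -1.10 in the pools of 6, -2.38 in group 1 and -0.87 in group 2 (mean -1.45 ± 0.81). Oasl2 was close to it, at -0.86, -2.51 and -0.79 (mean -1.39 ± 0.97), and Oas1a had a mean of -1.20 ± 0.67. These 3 were lower by 1.5-fold or more in each pair. Oasl1, Oas3 and Oas1b had smaller means, between -0.68 and -0.49. Oas2, Oas3, Oas1b and Oas1a are neighbours on chromosome 5 (167974 bases in mm9), so genes of the same cluster ranged from -1.45 to -0.49. These are close relatives, and whether a probe also reads a related transcript was not tested.

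Among the GTPases, the immunity-related group that acts on vacuoles of parasites was lowest. Iigp1 was at -1.41 in the pools of 6, -2.68 in group 1 and -0.45 in group 2 (mean -1.51 ± 1.12). Igtp was steadier, at -1.22, -2.15 and -1.09 (mean -1.49 ± 0.58), and so was Ifi47, at -1.25, -1.89 and -1.07 (mean -1.40 ± 0.43). Ifi47 and Igtp also had maternal differences of -1.46 and -1.44, both within the range of their fetal pairs. The guanylate-binding proteins followed, with Gbp3 at -1.26 ± 0.74, Gbp6 at -0.95 ± 0.46 and Gbp2 at -0.58 ± 0.32; the accession of the Gbp6 probe belongs to Gbp7 in the current RefSeq table. Mx1 and Mx2, which belong to the dynamin-like GTPases, had small differences. Mx2 was at -0.49 ± 0.27, and Mx1, at -0.08, -0.44 and -0.22 (mean -0.25 ± 0.18), was among the 3 members with the smallest fetal differences. The Schlafen genes, growth and RNA regulators of leukocytes, spread as widely: Slfn4 was at -1.55 in the pools of 6, -2.60 in group 1 and -1.22 in group 2 (mean -1.79 ± 0.72). Slfn1 was at -0.50 ± 0.28. Slfn2 had the smallest fetal difference of all members, -0.21, -0.40 and -0.11 (mean -0.24 ± 0.15), although the 3 Schlafen genes lie within 119243 bases on chromosome 11 (mm9).

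Membrane and antigen-handling members came between. Rtp4, a chaperone of membrane receptors, was at -1.09 in the pools of 6, -2.52 in group 1 and -0.77 in group 2 (mean -1.46 ± 0.93), and at -1.27 in mothers. Ifitm3, which hinders viral entry at endosomes, and Bst2 (tetherin), which holds budding particles, were at -0.97 ± 0.41 and -0.94 ± 0.44. Tap1, the peptide transporter of antigen presentation, was at -0.06, -0.69 and -0.34 (mean -0.36 ± 0.31) and also completed the 3 smallest. The remaining members were mostly far lower. Ifi44, an antiproliferative protein, was at -1.23, -2.98 and -1.43 (mean -1.88 ± 0.96). Ifi27l2a, a small mitochondrial membrane protein, was at -1.40, -2.63 and -0.93 (mean -1.65 ± 0.88), and its maternal arrays gave -1.77 and -1.88. Rsad2 (viperin), an enzyme that makes a chain-terminating nucleotide, was at -1.43, -2.44 and -0.65 (mean -1.51 ± 0.90). Parp14 had a mean of -1.29 ± 0.74, Xaf1 of -0.89 ± 0.49 and Ifi35 of -0.62 ± 0.21.

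The size of the fetal differences rested in part on group 1. The SD over pool pairs had a median of 0.57 over the members, against 0.09 over all genes, while exchanging the dyes moved a member's fetal value by a median of 0.08 to either side. Without group 1, the median of the members' means went from -0.97 to -0.71, and 7 members in place of 18 had a mean at least 2-fold lower (0.412% of all genes). For 17 members the mean was over 1.5 times smaller without it, among them Ifit1 (-0.71), Iigp1 (-0.93), Rtp4 (-0.93) and Oasl2 (-0.83). The count of members lower by 1.5-fold in each remaining pair was again 19, since group 1 was lowest for all.

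Levels in the single pools show where the pairs parted. The level is the log2 intensity of the probe after the arrays were set to a common scale, and levels are compared between pools, not between probes. Isg15 stood at 12.51, 13.29 and 13.16 in the control pools of 6, of group 1 and of group 2, and at 10.81, 9.41 and 11.60 in the FR pools in the same order. Its control pools spanned 0.78 and its FR pools 2.20, with no overlap. Iigp1 was at 14.14, 14.43 and 14.01 in control and at 12.73, 11.75 and 13.56 in FR pools. Ifit1 was at 9.52, 10.08 and 9.80 in control and at 8.82, 7.21 and 9.09 in FR pools. For both, the FR pool of group 1 was the lowest of the 6 fetal pools, and the diets did not overlap. Rsad2 had nearly equal control pools (14.29, 14.17 and 14.09) and FR pools at 12.86, 11.73 and 13.44. Ifi44 was at 8.82, 9.31 and 8.78 in control and at 7.58, 6.33 and 7.35 in FR pools.

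**Figure D2:**
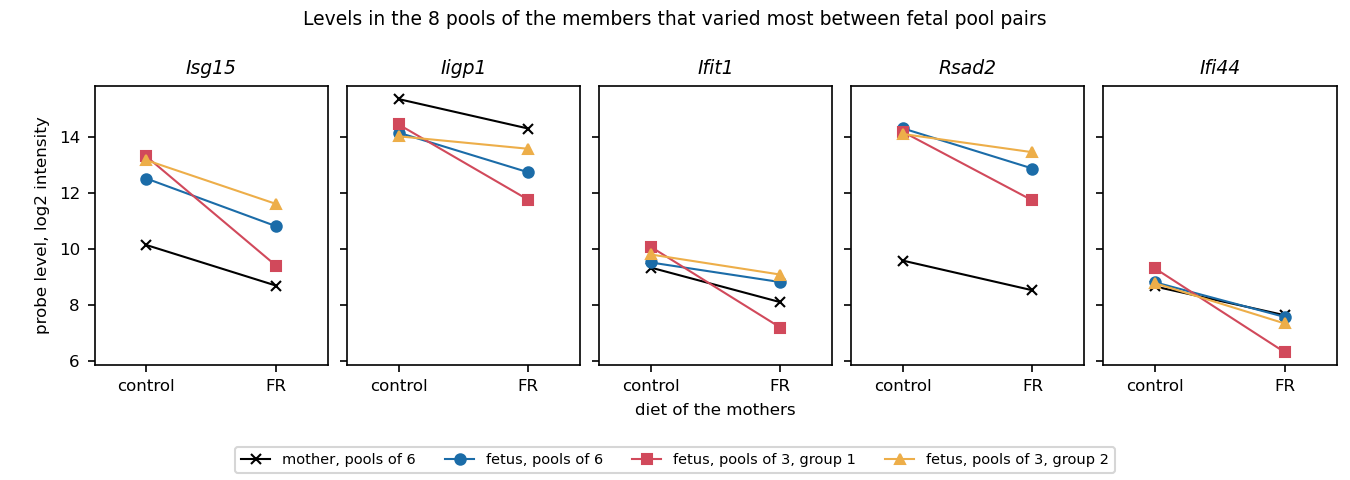
Level (log2 intensity) of Isg15, Iigp1, Ifit1, Rsad2 and Ifi44, the 5 members with the widest range over the fetal pool pairs, in each control and FR pool, with a line joining the 2 pools that shared arrays. In each panel the FR pool of group 1 is the lowest of the fetal pools, at 9.41 for Isg15 and 7.21 for Ifit1, while the 3 fetal control pools lie closer together than the FR pools.

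Over all members, the FR pools lay below all 3 control pools for 33 of 39, and for 12.5% of all genes. The exceptions were Irf7, Stat2, Ddx58, Tap1, Mx1 and Slfn2. Leaving out group 1 again gave 33, and leaving out the pools of 6 or group 2 gave 39. Fewer pools leave less room for overlap, so these counts could hardly fall and are no check of the 33. When spots marked as non-uniform were dropped the count was 4, with some members no longer measured. The share of all genes was not taken for these counts. The FR pool of group 1 was below that of group 2 for 38 members (51.7% of all genes), with a median difference of -0.81, while in control pools group 1 was above group 2 for 35 members (58% of all genes), with a median difference of 0.17. The corresponding medians of all genes were -0.01 and 0.03.

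Maternal liver was also lower for every member measured. Of the 39, 35 passed the filter in mothers, and Slfn1, Slfn4, Oas1b and Mx1 did not. All 35 were below 0 on both maternal arrays (34.2% of the 19527 genes measured), 24 were lower by 1.5-fold or more on both (3.87% of all genes), 0 were higher by as much (3.01%), and the median was -0.91. The 4 largest differences were those of Zbp1 (-2.11), Ifi27l2a (-1.82), Ifi47 (-1.46) and Isg15 (-1.44), a nucleic acid sensor, a mitochondrial protein, a GTPase and the ubiquitin-like modifier. Igtp and Gbp3 followed at -1.44 and -1.37. The smallest were those of Oas3 (-0.12), Usp18 (-0.12), Mx2 (-0.21) and Slfn2 (-0.22). By role, 6 of 7 measured GTPases, 4 of 5 OAS genes and 3 of 5 of the Isg15 and Ifit group were lower by 1.5-fold on both arrays. Without loess normalization the count of 24 became 11. There was 1 pool per diet, so these values have no replicate check.

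For 26 of the 35 members measured in both livers the maternal value lay within the range of the 3 fetal pairs. It lay above all 3 for 8 members, closer to 0, among them Isg15, Irf7 and Usp18. Lower by 1.5-fold or more in all 3 fetal pairs and on both maternal arrays were 17 of the 35, against 0.488% of the genes measured in both.

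The level itself, averaged over both diets, differed between maternal and fetal liver for some members. There was 1 maternal pair, so the spread between maternal pools is unknown and these differences are given without a test. Each is the maternal level minus the mean of the 3 fetal pairs. The median difference was -0.35 over the members and -0.02 over all genes. Bst2 was higher in mothers by 1.97, Oasl1 by 1.74, Iigp1 by 1.37 and Ifitm3 by 1.17, the largest differences in that direction. Rsad2 was far higher in fetuses, at 13.58, 12.95 and 13.77 in the 3 pairs against 9.06 in mothers, a difference of -4.37. Isg15 differed by -2.38 and Slfn2 by -1.63. Slfn4 was not well above background in mothers and at least 5.46-fold higher in fetuses. The bound was the higher of the probe's own maternal signal and the lowest signal well above background on each array. Usp18 (-1.42), Ifit2 (-1.06) and Slfn1 (-0.93, not well above background in mothers) came next in fetuses, and Zbp1 (0.95) in mothers. Mx1, above background in 2 of 4 maternal channels, differed by -0.79 and Oas3 by -0.71. Igtp and Oasl2 differed by -0.84 and -0.86.

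**Figure D3:**
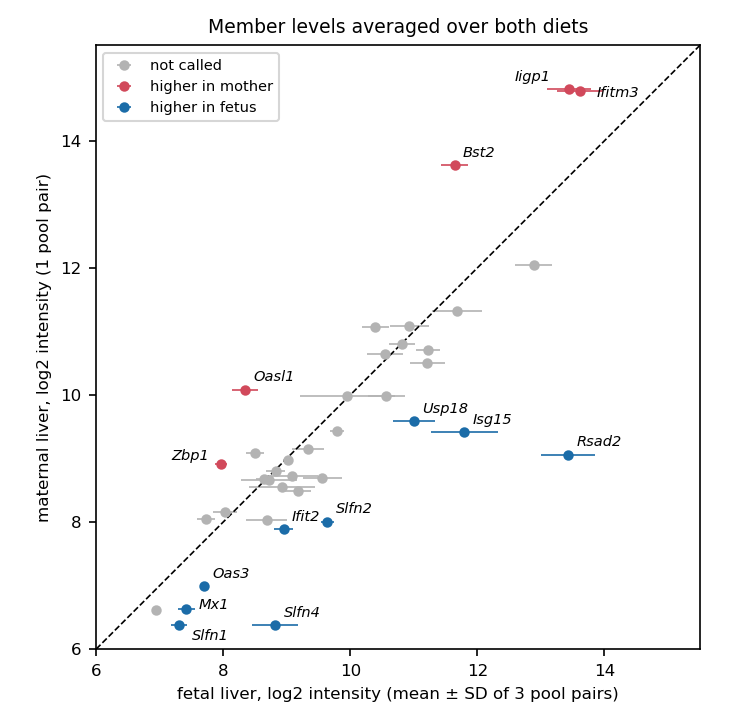
Level of each member in maternal liver (y axis, log2 intensity, 1 pool pair) against fetal liver (x axis, mean ± SD of 3 pool pairs), averaged over both diets, with the line of equal level dashed. Colours and names mark members that a limma fit called, which with 1 maternal pair is not read as a test here. Rsad2 lies farthest from the line, at 9.06 in mothers and 13.43 in fetuses, and Bst2 and Oasl1 lie farthest above it.

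The maternal pair shared slide 1 with the fetal pools of 6. Against that fetal pair alone, the difference was -4.52 for Rsad2, -2.24 for Isg15, 1.79 for Bst2 and 0.79 for Ifitm3. The fetal mean includes that pair, so a like sign is close to fixed and does not test an effect of slide. With FR pools only, the differences included -1.91 for Isg15, -1.55 for Slfn4, 1.60 for Iigp1 and 1.15 for Ifitm3. Without the spots marked non-uniform they included -3.62 for Rsad2, -2.55 for Slfn4, 3.85 for Bst2, 2.25 for Oasl1 and 3.00 for Iigp1. The sizes thus depended on the pools and spots used.

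Genes of the pathway outside the members were tested in fetal liver with limma over the 3 pool pairs, where 14.2% of all genes were lower and 11.4% higher at an adjusted p below 0.05. These lists too were drawn up with earlier results known, so their counts are not independent evidence of a direction, and pools that share mothers would make the p-values too small. Among ligands and receptors 2 of 15 measured genes fell, close to the 14.2% of all genes, and none rose. The type I receptor chains Ifnar1 (-0.02 ± 0.04 SE, adjusted p = 0.72) and Ifnar2 (-0.08 ± 0.05, adjusted p = 0.31) and the interferon gamma receptor chains Ifngr1 (0.02 ± 0.10, adjusted p = 0.90) and Ifngr2 (0.15 ± 0.05, adjusted p = 0.073) did not pass. Those that fell were Il28ra and Il10rb, which form the receptor of interferon lambda, at -0.43 and -0.26 (limma adjusted p = 0.013 and 0.037). Il10rb was at -0.038 (adjusted p = 0.57) without the spots marked non-uniform and at -0.15 (adjusted p = 0.063) with the mean of its probes, of which the dimmer gave -0.04, and its call was also lost without loess, with the deposited ratios and without group 1. The Ifnb1 probe, for interferon beta, was above background in 0 of 12 fetal channels and is not among the 15.

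Among signalling genes 8 of 19 fell and 2 rose. Irf4, a factor of lymphocytes, was at -0.74 in the pools of 6, -1.27 in group 1 and -0.86 in group 2 (mean -0.96 ± 0.11 SE, limma adjusted p = 0.0083). Irf1, an early interferon-induced factor, fell by 0.73 (adjusted p = 0.012). Irf3 (-0.45), which switches on interferon beta, Tyk2 (-0.43), Jak1 (-0.42), Socs1 (-0.36), an inhibitor of the kinases, and Irf8 (-0.32), a factor of myeloid cells, also fell, with adjusted p between 0.012 and 0.045. Without group 1, Irf3 (adjusted p = 0.13), Jak1 (adjusted p = 0.11) and Irf8 (adjusted p = 0.057) were no longer called, and without the spots marked non-uniform Irf3 (adjusted p = 0.080) and Jak1 (0.069, adjusted p = 0.37) were not. Jak2, the kinase of the interferon gamma receptor, rose by 0.62 (limma adjusted p = 0.016). Its dimmer probe gave a mean of 0.10, with -0.06 in group 2. Among nucleic acid sensing genes 4 of 22 fell and 3 rose, close to the 14.2% and 11.4% of all genes. Adar, which edits double-stranded RNA, was at -0.59, Samhd1 at -0.47, Trim25 at -0.45 and Tlr7, which rose, at 0.39.

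Of the other interferon-induced genes, 39 of 71 fell and 1 rose, with a median of -0.45. Cxcl10, a chemokine for T cells, was at -1.21, -2.94 and -0.83 in the pools of 6, group 1 and group 2 (mean -1.66 ± 0.41 SE, limma adjusted p = 0.043, and 0.058 without the spots marked non-uniform). Oas1f (-1.41), Trim30 (-1.28) and Irgm2 (-1.27) had the next largest differences. Tgtp1, a GTPase named for T cells, was the 1 that rose, at a mean of 0.82; it is named because its values were seen. In mothers 26 of the 71 were lower by 1.5-fold on both arrays (3.87% of all genes) and 0 higher (3.01%). Their maternal median was -0.54. Over the 127 pathway genes the fetal fit called 53 lower and 6 higher, against 14.2% and 11.4% of all genes. Without the pools of 6, limma called 0 lower and 0 higher, with 60 and 6 at an unadjusted p below 0.05. Without the spots marked non-uniform it called 31 lower and 2 higher of 98 measured, and 19.9% of all genes in either direction. The 2 pairs left without the pools of 6 called 0 of all genes either.

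**Figure D4:**
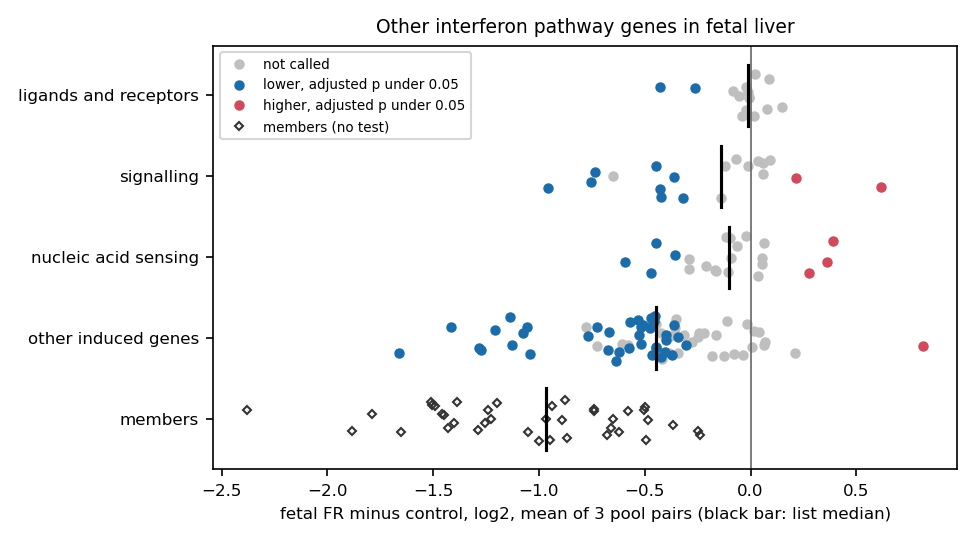
Fetal FR minus control (log2, mean of 3 pool pairs) of 127 other pathway genes in 4 lists, with genes called lower in blue, called higher in red and not called in grey, and the 39 members, which were not tested, as open diamonds. The list medians (black bars) are -0.01 for ligands and receptors, -0.14 for signalling, -0.10 for nucleic acid sensing, -0.45 for other induced genes and -0.97 for the members.

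Markers of liver and blood cells were measured in the same pools. Alb was bright in all pools and Afp was at 17.06 to 17.13 in fetal control pools and 7.86 in control mothers. In fetuses the medians of FR minus control were -0.17 for 10 hepatocyte markers, -0.03 for 14 of Kupffer cells and macrophages, -0.27 for 11 of monocytes and dendritic cells, -0.07 for 8 of plasmacytoid dendritic cells (Siglech was not above background), -0.37 for 9 of T and NK cells (Ncr1 and Prf1 were not), 0.10 for 13 of erythroid and -0.17 for 10 of endothelial cells. Markers of neutrophils and of the B lineage, which matures in fetal liver, had the lowest medians. The neutrophil median was -0.66 over 14 markers, 5 of them lower by 1.5-fold in all 3 pairs, and their summed linear level was 397077 to 412339 in control and 252009 to 279218 in FR pools. The B-lineage median was -0.81 over 12 markers (Rag2 was not above background), 6 of them lower by 1.5-fold in all 3 pairs, with sums of 20817 to 21809 in control and 8473 to 13022 in FR pools. Sums were also lower in each FR pool than in any control pool for other lists. Hepatocyte sums were 720767 to 837481 in control and 585161 to 679404 in FR pools. Plasmacytoid dendritic sums were 3486 to 3863 and 2425 to 3293, T and NK sums 4201 to 4605 and 3141 to 3922. Endothelial sums were 22906 to 23786 and 18237 to 20607. For Kupffer, monocyte and erythroid lists the sums of the diets overlapped. In group 1 the B-lineage median was -1.07 and the neutrophil median -0.71. In mothers, neutrophil and B-lineage markers had medians of 0.02 and -0.02, with 7 of 14 neutrophil and 4 of 13 B-lineage genes not above background there. Kupffer and macrophage markers were at -0.47 (summed level 50439 in control and 36133 in FR) and erythroid markers at -0.47. Monocyte and dendritic markers were at -0.26 (9361 and 5774), plasmacytoid dendritic at -0.05 (6126 and 3615) and endothelial at -0.20 (32178 and 21559). T and NK cell markers were at -0.16 and hepatocyte markers at -0.14. Every list but that of neutrophils had a lower summed level in FR mothers. The part of these cells in the members' differences was not tested.

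**Figure D5:**
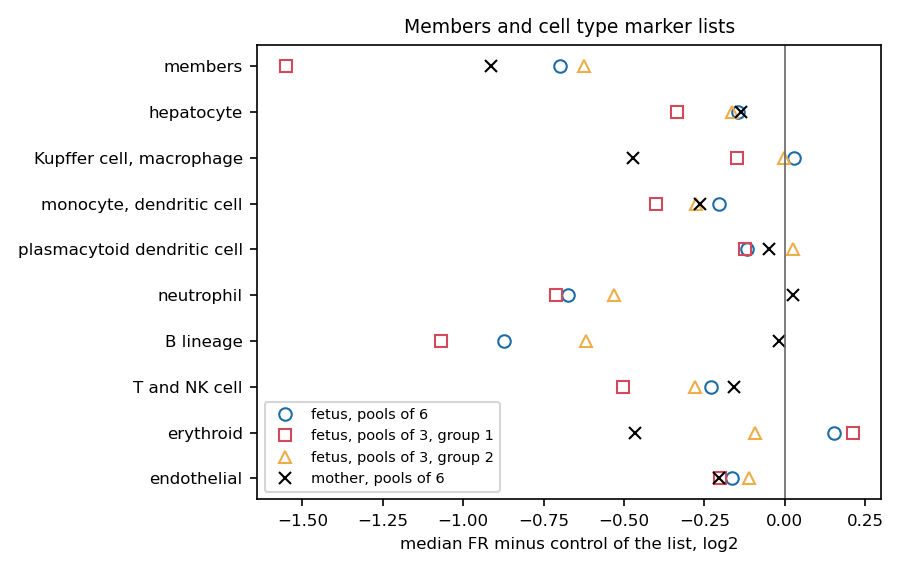
Median FR minus control (log2) of the 39 members and of 9 lists of cell type markers in each fetal pool pair (circle, square and triangle) and in the maternal pair (cross). The members' medians run from -1.55 to -0.62 in fetuses, the B-lineage and neutrophil lists are the lowest of the marker lists there, and in mothers both of those lists lie near 0 while the members' median is -0.91.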

How the data were processed

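The deposited scanner files hold the intensity of each spot and its background in Cy3 and Cy5, per the file headers from Agilent Feature Extraction (version 9.5.3.1 on slide 1, 11.0.1.1 on slide 2; the submitters' processing notes name the former). The deposited value table holds log10 ratios of Cy5 over Cy3, not turned for dye, equal to the log10 ratio of the processed signals within 5e-08. Descriptions that call the exchanged array another pool, and name rat tissue, were overridden by the titles; on the other reading the number of pools and every SD would change.

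Spots were corrected with normexp (offset 50; mean signal on slide 1, median on slide 2), loess-normalized within each array giving control spots weight 0 (limma 3.58.1, R 4.3.3) and turned to log2 FR minus control. Population outliers were left out. Spots marked non-uniform were kept, since on slide 1 they include 78.8% to 87.3% of the brightest 10% in Cy3. Probes passed when every array used showed 1 diet well above background, and the brightest passing probe stood for a gene. Levels were set to a common scale by Aquantile. Tests were limma (lmFit, eBayes, Benjamini-Hochberg over all genes). They were run on simulated data with independent pool pairs, which cannot show how they behave where pools share mothers. Raw medians per array were 69.1 to 284 in Cy3 and 122 to 310 in Cy5, and the number of arrays limits the precision. Gene names are those of slide 1 (mm9 coordinates), applied to slide 2 by identical probe order.

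The members and lists were chosen with earlier results of these data known. Members with the 12 largest and 3 smallest fetal and the 4 largest maternal differences are given by pool pair, the 5 widest by pool; among other pathway genes, a set of receptors and factors and up to 4 called genes per list are named. Tgtp1 was added after its values were seen, and 1 gene that the rule named is not reported here. Alternatives were another offset (10), no loess, other probe filters and probe choices, the deposited ratios, slide as a term, and leaving out each pool pair.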

Additional observations from a re-analysis of the deposited data

Results flagged for a closer look

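Of the pathway genes named in the results, 3 had opposite directions in every fetal pool pair and on both maternal arrays. No member did, and cell type markers were not counted. The difference between the livers was not tested for any of the 3. Tgtp1, an interferon-induced GTPase, was higher under FR in fetuses, at 1.18 in the pools of 6, 0.26 in group 1 and 1.01 in group 2, and lower in mothers, at -1.04 and -0.92 (mean -0.98). Its dimmer probe gave 0.16 in fetuses and 0.05 in mothers. Tlr7, a sensor of single-stranded RNA, was at 0.43, 0.43 and 0.31 in fetuses and at -0.13 and -0.17 in mothers (mean -0.15). Ifnar1, a chain of the type I receptor, was at -0.01, -0.03 and -0.03 in fetuses and at 0.18 and 0.11 in mothers (mean 0.15), values close to 0 in both. Among the other measured pathway genes Parp10 (-0.53 in fetuses and 0.12 in mothers), Ifi30 (0.21 and -0.27) and Ifna12 (-0.06 and 0.08) also had opposite signs throughout.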

How the results depend on the processing

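FR and control pools were compared within arrays, so each diet difference is already paired. Slide as a random block could not be fitted with 3 pool pairs. Every member that passed the main filter stayed below 0 in its fetal and maternal mean under every alternative run that measured it. With no filter on dim probes, Slfn1, which was not well above background in mothers, was at 0.05 there. The fetal count of 19 and the median of -0.97 stayed within 1.5 times or 1 SD under every alternative run. Without 1 fetal pair the median ran from -1.14 to -0.71, and the pathway genes called lower from 0 to 62 and higher from 0 to 5. The count ran from 19 to 23, and that of members whose pools did not overlap from 33 to 39. Dropping a pair eases both rules, so these 2 counts could hardly fall and are no check. The 0 calls came without the pools of 6.
Without the spots marked non-uniform, pathway calls were 31 lower and 2 higher, with 19.9% of all genes called. Non-overlapping members were then 4 (an alternative added after the data were seen) and the maternal median -0.85. The marks remove most bright spots of slide 1 alone before levels are set to a common scale. The maternal minus fetal level of Bst2 was then 3.85 in place of 1.97. Without loess, 2 pathway genes rose and the maternal count was 11. The maternal median was -1.02 with offset 10, -0.85 with no filter, -0.86 with the mean of all passing probes and -1.11 from the deposited ratios. The limma fit of the level has 1 maternal pair, so its calls are not read as a test and are given only for their dependence on the pools. With control pools only it called 15 members higher in fetuses, where 34.9% of all genes were called in either direction. With FR pools only it called 2 members higher in mothers and 3 in fetuses, where 30.8% of all genes were called. The cause was not tested.
Signs turned for receptor chains near 0 and for Jak1. Without non-uniform spots Ifnar2 was at 0.20, Ifngr2 at -0.13 and Jak1, read from a dimmer probe, at 0.069. With the mean of all probes Ifnar2 was at 0.00016, without loess Ifngr1 was at -0.13 and Ifngr2 at -0.0012, from the deposited ratios Ifnar1 was at 0.00094, and without 1 fetal pair Ifngr1 ran from -0.12 (without group 2) to 0.13. Probes near background, as in Mx1 and Oas1b, understate a difference.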

Other observations

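Of the 39 members, 12 had several probes, and the dimmer ones mostly gave smaller differences. Ifi27l2a had 3 bright probes with fetal means of -1.65, -1.79 and -1.45. Rsad2 had fetal means of -1.51, -1.59 and -1.49 but maternal values of -1.06, -0.17 and -0.22, so its maternal difference was large for the brightest probe alone. Ifi44 was at -1.88 and -0.50, and the second probe of Oas2, close to background, was at -0.09 beside -1.45.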
